A study of Homo sapiens with 20 samples.

Results

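The genes NME1, NME2, BRWD1, SNX5 and FOXK1 were followed through 12 ChIP-seq summit lists, 6 for the transcription factor c-Myc (MYC) and 6 for RNA polymerase II (POL2). They are 5 of the 19970 protein-coding genes on chromosomes 1 to 22 and X. They were chosen by the ranks of MYC summits in these same lists, since each lies at or beside a MYC site that was found in all 6 MYC lists. Therefore the presence and rank of MYC at these genes are given as a description, with no test. Summits of both antibodies were taken within 5 kb of any GENCODE transcription start site (TSS) of a gene, and within 50 kb for FOXK1.

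The cells were PC-3, an established human prostate cancer line, either wild-type (WT) or with a knockout of SLK, which encodes a serine/threonine kinase. The labels also call the knockout PSD10. They do not say whether it is 1 clone, so loss of SLK and other differences of that line cannot be told apart. Each antibody had 3 libraries per genotype, named as biological replicates in the series' design text. For MYC, the WT libraries gave 365, 201 and 267 summits, and those of SLK-KO gave 1218, 1420 and 988. The POL2 lists held 17126, 5047 and 9925 summits in WT and 19017, 15436 and 16298 in SLK-KO. The lists hold no read counts, so sequencing depth is unknown, and a summit that is missing from a list is a peak that was not called rather than absent binding. Of 5 epithelial marker genes, KRT8, KRT18 and KRT19 carried POL2 near a TSS (1 kb or less) in all 6 POL2 libraries, while CDH1 did so in 1 WT library and no SLK-KO library. The blood cell genes PTPRC and CD3E had none in any POL2 library, nor had the prostate gene KLK3.

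MYC binds DNA as a dimer with MAX, at a short palindrome called the E-box, CACGTG, and at weaker variants of it. It is found mostly at promoters that are already open and carry POL2, and many of its best-known targets serve nucleotide, ribosome and protein synthesis. NME1 and NME2 encode nucleoside diphosphate kinases, which transfer phosphate from ATP to other nucleoside diphosphates, and NME1 is also known as a metastasis suppressor. BRWD1 encodes a chromatin reader with bromodomains and WD repeats, SNX5 a sorting nexin that helps carry cargo out of endosomes, and FOXK1 a forkhead transcription factor that represses autophagy genes.

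Summits of the 6 MYC libraries were joined into a site where neighbours lay 250 bp or less apart. This gave 2348 sites, of which 84 had a summit in all 6 libraries and 80 of those lay on chromosomes 1 to 22 and X. All 5 sites described here are among the 80, and each is placed below in GRCh38 coordinates. The middle of the NME1 site (chromosome 17, 51153549 to 51153580) lay 5.5 bp downstream of the annotated start of NME1 (ENSG00000239672.8, plus strand, 51153559 to 51162428), in its UTR, and 25.5 bp upstream of the first start of the readthrough gene NME1-NME2. The NME2 site (chromosome 17, 51166740 to 51166771) lay inside NME2 (ENSG00000243678.12, 51165435 to 51171744), 191.5 bp from the nearest NME2 TSS at 51166564. It fell in an intron of 6 NME2 transcripts and in the UTR of 1. The starts of both NME genes are 11876 bp apart on the same strand.

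The BRWD1 site (chromosome 21, 39313692 to 39313817) was not at the outermost start of BRWD1 (ENSG00000185658.14, minus strand, 39184176 to 39321559) but 64.5 bp from an internal TSS at 39313819. The lncRNA BRWD1-AS2 starts on the opposite strand 152.5 bp away. The SNX5 site (chromosome 20, 17968632 to 17968726) lay 77 bp from the nearest TSS of SNX5 (ENSG00000089006.17, minus strand, 17941597 to 17968980). It lay 339 bp from the start of MGME1, which encodes a mitochondrial DNA exonuclease and is read in the opposite direction.

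The FOXK1 site is not a FOXK1 promoter. It spans 4642040 to 4642099 of chromosome 7, 40225.5 bp upstream of the start of FOXK1 (ENSG00000164916.11, plus strand, 4682295 to 4771442). No exon of FOXK1 or of the lncRNA named next covers it, and exons of genes farther away were not searched. The nearest TSS is that of a lncRNA, ENSG00000286874 (4642248 to 4642570), 178.5 bp downstream of the middle of the site. No MYC or POL2 summit lay within 1 kb of any FOXK1 TSS in any library. It is called the FOXK1 upstream site from here on, and nothing in the lists ties it to FOXK1 beyond distance. In this it was in the minority, since 71 of the 80 shared sites (88.8%) lay within 1 kb of a coding TSS, though all 80 lay within 1 kb of a TSS of some kind.

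The sequence around each E-box is shown because the sites differ in the number and spacing of their E-boxes. The stretches are from GRCh38, written 5′ to 3′ on the strand of the named gene, with the E-box or its variant in capitals. The motif CACGTG was searched on both strands within 100 bp of the middle of each site. So was the variant CACGCG, along with the variant CATGTG, besides the variant CATGCG and also the variant CACGAG. A match describes these letters and does not show that MYC touched them.
NME1, chr17:51153581-51153610, plus strand: agtgctgcgaacCACGTGggtcccgggcgc
NME2, chr17:51166699-51166728, plus strand: cggccgggaagcCACGTGtccccgcggccg
NME2, chr17:51166749-51166778, plus strand: accggcggcgccCACGTGgcctccgcgggc
SNX5, chr20:17968608-17968637, minus strand: gctctgggggagCACGTGgcgccctgctcg
SNX5, chr20:17968674-17968703, minus strand: aagggtaggcccCACGTGgcgtctttgccc
BRWD1, chr21:39313720-39313749, minus strand: ccccgggcgggaCACGAGctccggtcctct
FOXK1 upstream, chr7:4642019-4642149, plus strand: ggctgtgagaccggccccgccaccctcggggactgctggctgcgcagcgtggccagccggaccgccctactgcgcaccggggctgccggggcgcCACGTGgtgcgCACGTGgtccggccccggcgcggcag

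CACGTG was present at 4 of the 5 sites, and NME2, SNX5 and the FOXK1 upstream site held 2 copies each. Across the 80 shared sites 42 (52.5%) had CACGTG in the same window and 13 (16.2%) had 2 or more copies. Over the 2328 MYC sites on these chromosomes found in at least 1 library the shares were 28.0% and 2.49%. At the 15527 POL2 sites within 1 kb of a coding TSS they were 4.31% and 0.303%. The paired E-boxes of the FOXK1 upstream site start at 4642113 and 4642124 and so sit close together, whereas those of NME2 start at 51166711 and 51166761 and those of SNX5 at 17968620 and 17968686. In 4 of the 7 copies the E-box had C before it and G after it, a flank found at 17 of 57 copies (29.8%) in the 80 shared sites and 88 of 721 (12.2%) in the POL2 promoter sites.

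BRWD1 stood apart. It had no CACGTG within 500 bp of any of its 6 MYC summits, and the variant printed above, CACGAG, lay 19.5 bp from the middle of its site. CACGAG is not rare in such sequence: 15 of the 80 shared sites (18.8%), 13.4% of all MYC sites and 5.62% of POL2 promoter sites held it. CACGCG lay at NME2 and the FOXK1 upstream site besides their E-boxes, and CACGAG at SNX5. In the RefSeq promoters (GRCh38.p14, 250 bases before to 50 after each start), CACGTG was in 2540 of 34961 (7.27%). All 5 genes had an entry. The promoters of NME1 and FOXK1 held 1 copy each and those of NME2, BRWD1 and SNX5 none. The E-box in the RefSeq promoter of FOXK1 is thus not the one under the MYC summits, and the E-boxes at NME2 and SNX5 lie outside that window. The bases within 100 bp of the site middle were 61.2% G or C at NME1, 68.7% at BRWD1, 71.1% at SNX5, 78.6% at the FOXK1 upstream site and 79.1% at NME2, with a median of 69.4% over the 80 shared sites.

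**Figure D1:**
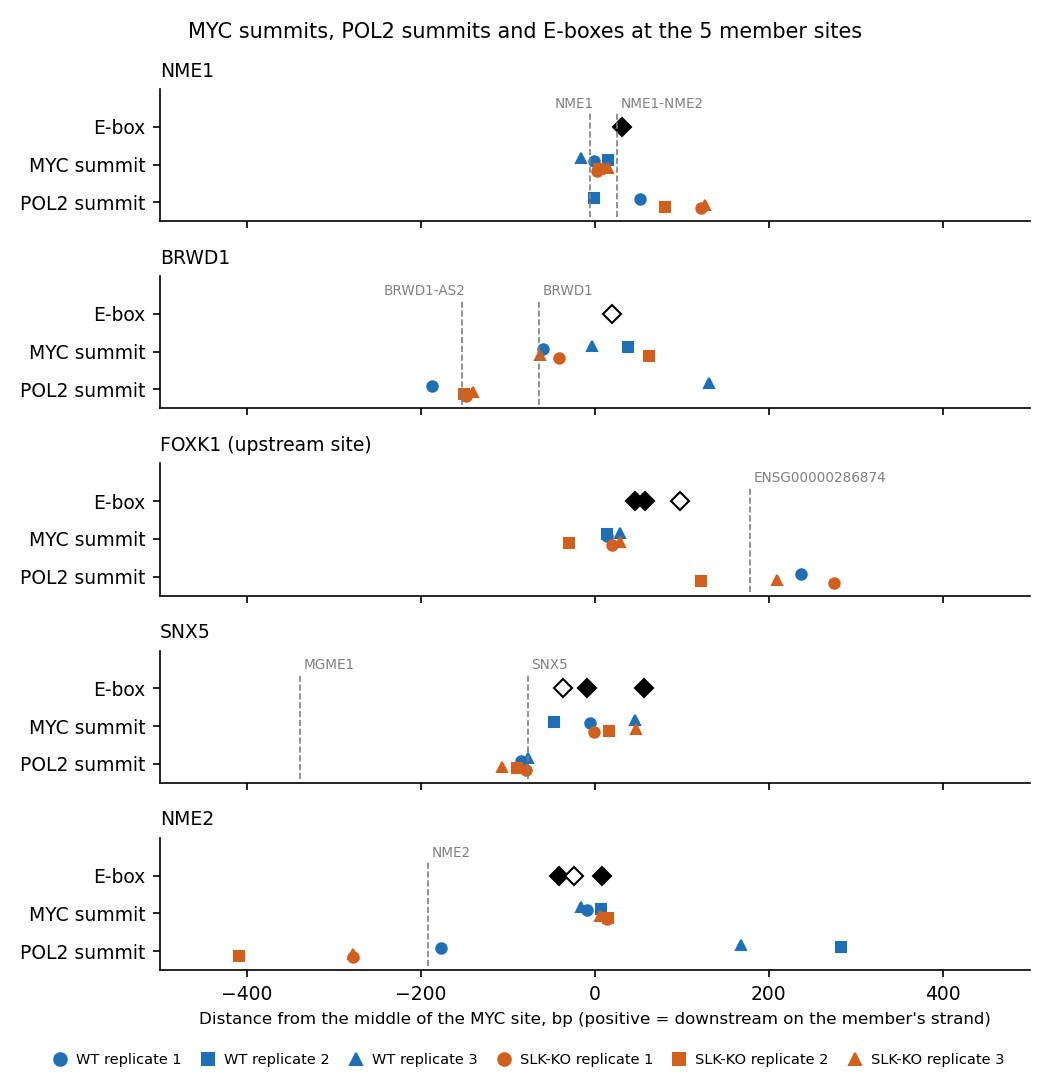
Each panel is 1 MYC site, and the horizontal axis is the distance in bp from its middle, positive downstream on the strand of the named gene. Filled diamonds are CACGTG, open diamonds variants, and dashed lines the nearest TSS of each gene. The other symbols are the MYC summit of each library and its nearest POL2 summit, where that lies within 500 bp. Other POL2 summits in the window are not drawn. The MYC summits of NME1 and NME2 span 31 bp each, those of BRWD1 span 125 bp, and at the FOXK1 upstream site both E-boxes lie next to each other.

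Ranks are by the authors' score, taken here to be −log10 of a q-value from its lowest values, with rank 1 the highest score of a list. Scores and ranks describe a place within 1 list, and since the lists differ in length they show no change between genotypes. NME1 ranked 3, 3 and 8 in the WT lists and 3, 2 and 3 in the SLK-KO lists. BRWD1 ranked 4, 19 and 3 in WT and 2, 3 and 5 in SLK-KO. The FOXK1 upstream site ranked 9, 9 and 5 in WT and 5, 5 and 4 in SLK-KO. These sites were thus in the top 10 of every list, except BRWD1 in WT replicate 2.

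SNX5 ranked 14, 5 and 12 in WT and 4, 7 and 6 in SLK-KO. NME2 was lower, at 13, 35 and 29 in WT and 18, 46 and 44 in SLK-KO. It was number 21 of the 84 shared sites by median rank and is included for its place beside NME1, which ranked better in all 6 libraries. The scores of NME1 ran from 29.3 in WT replicate 3 to 106 in SLK-KO replicate 2. Those of NME2 ran from 13.4 in WT replicate 2 to 39.6 in SLK-KO replicate 1.

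The median rank over the 6 lists was 3 for NME1, 3.5 for BRWD1, 5 for the FOXK1 upstream site, 6.5 for SNX5 and 32 for NME2. Neighbours in this order overlapped in their ranks over the libraries. Just outside the first 4 of these were DDX42 and MFSD3, each with a median rank of 7. Of the 4 shared sites outside chromosomes 1 to 22 and X, 1 had a median rank of 2. It was ahead of NME1 and the best of all 84 shared sites, and it was not analysed further. Ranked among the 84 shared sites alone, the sites whose ranks lay closest to those of NME2 over the 6 libraries were at EIF3B, a translation initiation factor subunit, and PAICS, a purine synthesis enzyme. Their mean absolute differences were 7.0 and 8.0 ranks. The other 4 sites had one another as their nearest, with differences of 3.33 to 4.33 ranks.

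**Figure D2:**
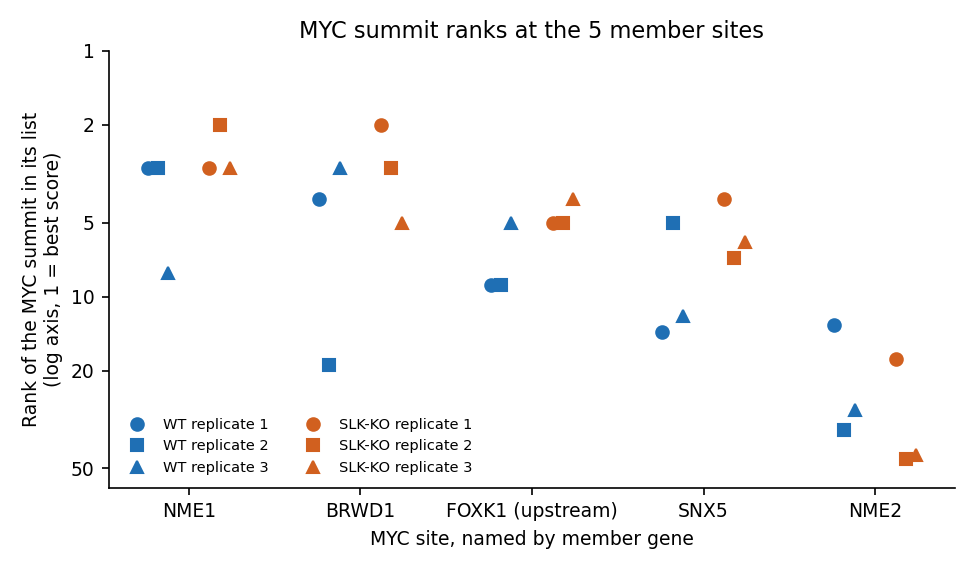
The vertical axis is the rank of the MYC summit in its own list on a log scale, with the best rank at the top, and each symbol is 1 library. NME1 lies between rank 2 and rank 8 in all 6 lists, and NME2 between 13 and 46.

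The position of the MYC summit does not enter its rank and was compared between genotypes. At NME1 the WT summits lay at 51153563, 51153580 and 51153549 and the SLK-KO summits at 51153567, 51153569 and 51153580. At NME2 they lay at 51166747, 51166763 and 51166740 in WT and at 51166769, 51166771 and 51166761 in SLK-KO. Both sites were sharply placed, with all 6 summits within 31 bp. The median span over the 80 shared sites was 90.5 bp, with quartiles of 59 and 147.5 bp, and 6 sites had a span of 31 bp or less. The BRWD1 summits were the most scattered of the 5, at 39313814, 39313716 and 39313758 in WT and 39313796, 39313692 and 39313817 in SLK-KO. The span was 94 bp at SNX5 and 59 bp at the FOXK1 upstream site.

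The mean position in SLK-KO minus that in WT was 8 bp at NME1, 17 bp at NME2, 5.67 bp at BRWD1, -22.7 bp at SNX5 and -13 bp at the FOXK1 upstream site. None reached the smallest p that the test allows. The exact two-sided permutation p was 0.2 for NME2, which was the lowest, and 0.4 to 0.9 for the others, and after Benjamini-Hochberg adjustment over the 80 sites they were 0.828 to 1. With 3 libraries against 3 the smallest possible p is 0.1. The ranges of both genotypes overlapped at 5 of 5 sites. Of the 80 sites 18.8% did not overlap, 6.25% with the SLK-KO summits at higher coordinates and 12.5% at lower ones. Without WT MYC replicate 2 the ranges of NME1 and NME2 no longer overlapped, with differences of 16 and 23.5 bp, but under the same omission the ranges of 33.8% of the 80 sites did not overlap either.

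The distance from a MYC summit to the nearest CACGTG was 0.5 to 23.5 bp over the 6 libraries at NME2, 4.5 to 37.5 bp at SNX5, 15.5 to 46.5 bp at NME1 and 16.5 to 75.5 bp at the FOXK1 upstream site. In the 42 shared sites with an E-box in the window, the median distance from the middle of the site was 22 bp. NME2, which ranked lowest of the 5, thus had its summits nearest to an E-box, and BRWD1, with the second best median rank of the 5, had none to be near.

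POL2 did not enter the choice of genes. NME1, BRWD1 and SNX5 each had POL2 within 5 kb in 2 WT libraries and in all 3 SLK-KO libraries. NME2 had it in all 6 libraries. Of all coding genes, 20.1% had one in all 6 and 57.0% in at least 1. POL2 in 2 WT and 3 SLK-KO libraries was the case for 28.3% of the genes with POL2 in at least 1. The number of such summits was 1, 1 and 0 in WT and 1, 1 and 1 in SLK-KO at NME1. At NME2 it was 5, 2 and 2 in WT and 5, 4 and 2 in SLK-KO. BRWD1 had 1, 0 and 1 in WT and 1, 1 and 2 in SLK-KO, and SNX5 had 4, 0 and 3 in WT and 1, 1 and 4 in SLK-KO. Not all SNX5 summits lay at its promoter. Those at 17939442 (WT replicate 1), 17939934 (WT replicate 3) and 17940116 (SLK-KO replicate 3) lay past its 3′ end. Those at 17969737 (WT replicate 3) and 17970013 (SLK-KO replicate 3) lay inside MGME1. The genotypes overlapped at each gene, and each adjusted p over all 11387 coding genes with a summit in at least 1 library was 1 (exact permutation p 0.6 for BRWD1 and 1 for the others). Of those 11387 genes, 5.81% had more summits in every SLK-KO than in every WT library and 0.0966% had fewer.

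The distance from the middle of the MYC site to the nearest POL2 summit shows which libraries lacked a summit at the site itself. At NME1 it was 52.5, 0.5 and 12529.5 bp in WT and 122.5, 80.5 and 126.5 bp in SLK-KO, so WT replicate 3 had none at the promoter. At BRWD1 it was 187.5, 35194.5 and 131.5 bp in WT and 148.5, 150.5 and 140.5 bp in SLK-KO, and at SNX5 85, 169028 and 77 bp in WT and 79, 90 and 107 bp in SLK-KO. At BRWD1 and SNX5 the library without a POL2 summit was WT replicate 2, whose list is the shortest of the 6. In the other 5 lists POL2 ranked 982 to 1895 at SNX5 and 3330 to 5839 at BRWD1, while that list holds 5047 summits. Ranks of different lists are not like for like, and the part of list length in the missing summits was not tested. At the FOXK1 upstream site the distances were 236.5, 133642.5 and 103382.5 bp in WT and 274.5, 122.5 and 209.5 bp in SLK-KO, so only 1 WT library had POL2 there. At NME2 they were 176.5, 283.5 and 167.5 bp in WT and 277.5, 408.5 and 278.5 bp in SLK-KO.

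No site passed the test of this distance. The exact permutation p was 0.2 at the FOXK1 upstream site, 0.3 at NME2, 0.4 at BRWD1, 0.9 at SNX5 and 1 at NME1, and the adjusted p over the 80 shared sites was 0.706 to 1. The ranges overlapped at 5 of 5 sites, whereas 10.0% of the 80 had a shorter distance in every SLK-KO library and 1.25% a longer one.

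**Figure D3:**
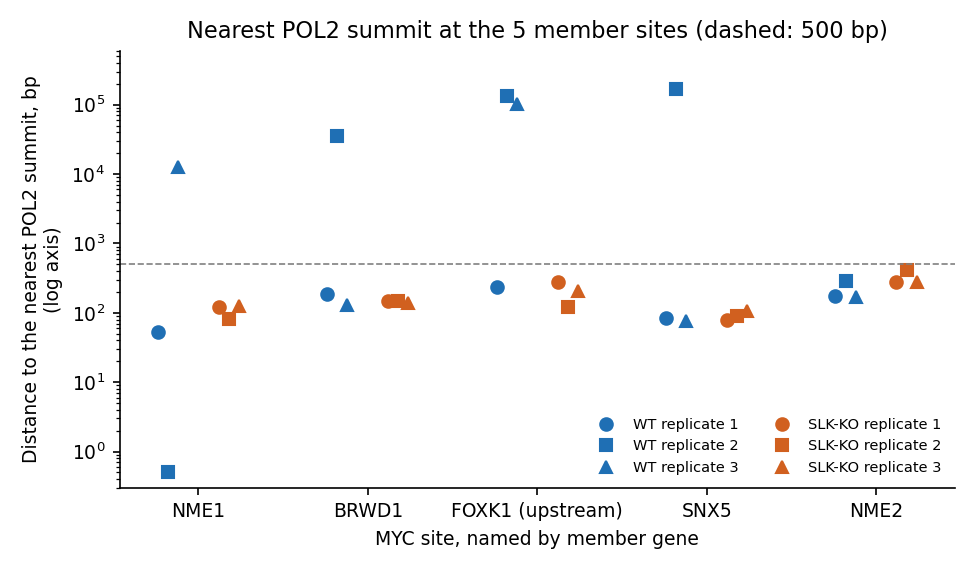
The vertical axis is the distance in bp, on a log scale, from the middle of each MYC site to the nearest POL2 summit, with 1 symbol per library and a dashed line at 500 bp. All 15 SLK-KO values lie under the line, and the 5 values above it are all WT.

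Within 500 bp of the middle of the site, POL2 was present in all 3 SLK-KO libraries at 5 of 5 sites and in all 3 WT libraries at 1 of 5, NME2. This window was chosen after the values were seen. Over the 80 shared sites, 60 had POL2 in all 3 SLK-KO and 46 in all 3 WT libraries. POL2 in all SLK-KO but not all WT libraries was found at 4 of 5 sites and at 23.8% of the 80, and the reverse at 0 of 5 and 6.25%. Without WT POL2 replicate 2 it was found at 2 of 5, NME1 and the FOXK1 upstream site, and at 10.0% of the 80. When each POL2 list was reduced to its 5047 best summits, it was found at 2 of 5 and at 12.5% of the 80. List length moved with this count, and its part in the count beyond these values was not tested.

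POL2 lay on different sides of MYC at these promoters. At NME1 the median POL2 summit was 80.5 bp downstream of the MYC site, in the direction of transcription. At SNX5 it was upstream in all 5 libraries that had it, with a median of -85 bp. At BRWD1 the median was -148.5 bp, with POL2 upstream in 4 libraries and 131.5 bp downstream in WT replicate 3. At NME2 the median of -227 bp hides a split, since the nearest POL2 summit was at -176.5, 283.5 and 167.5 bp in WT and at -277.5, -408.5 and -278.5 bp in SLK-KO. WT replicates 2 and 3 thus had their nearest summit downstream, the others upstream. Those downstream summits were weak, with scores of 1.53 and 4.26. Both libraries also had a better-scored summit on the upstream side, at 51166447 (score 8.84) in replicate 2 and at 51166094 (score 10.1) in replicate 3. The split thus holds for the nearest summit and not for the best one. The BRWD1 median places POL2 beside the start of BRWD1-AS2, and POL2 from a promoter and from an antisense one cannot be told apart in these lists. Of 64 shared sites at coding promoters with POL2 within 1 kb in at least 4 libraries, 22 (34.4%) had POL2 downstream, and the median was -124.5 bp.

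The order of NME1 and NME2 in the POL2 lists was opposite in the genotypes. By its best summit within 1 kb of a TSS, NME1 ranked 4797 and 4636 in WT replicates 1 and 2 and had no summit in WT replicate 3, and it ranked 1737, 1758 and 3006 in SLK-KO. NME2 ranked 2188, 1725 and 4001 in WT and 2108, 2170 and 5095 in SLK-KO. NME2 was therefore ahead of NME1 in 3 of 3 WT libraries and behind it in 3 of 3 SLK-KO libraries, in each case within 1 list. The scores of NME1 were 17.9 and 2.51 where it had a WT summit and 46.5, 36.6 and 26.4 in SLK-KO. Those of NME2 were 35.8, 8.84 and 10.1 in WT and 40.5, 30.9 and 16.3 in SLK-KO.

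As a log2 ratio of the rank of NME2 to that of NME1, with the missing summit ranked 1 past the end of its list, this was -1.13, -1.43 and -1.31 in WT and 0.28, 0.30 and 0.76 in SLK-KO. The means were -1.29 ± 0.148 and 0.45 ± 0.271 (SD, n = 3 each), a difference of 1.74. The exact permutation p was 0.1, the smallest possible here, and 0.413 after adjustment over 628 pairs of coding promoters 5 to 20 kb apart with POL2 in at least 5 of 6 libraries each. The ranges did not overlap in 24.2% of those pairs. The order was opposite in all 3 WT and all 3 SLK-KO libraries in 13 pairs (2.07%), NME1 and NME2 among them, and a difference at least as large was found in 27 (4.30%). This comparison was chosen after the values were seen.

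**Figure D4:**
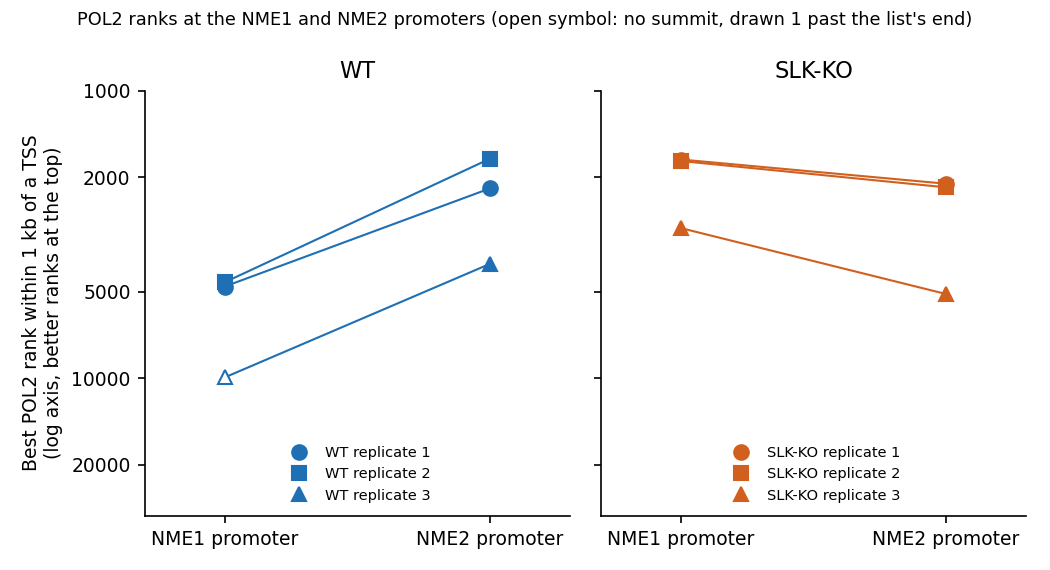
The vertical axis is the best POL2 rank within 1 kb of a TSS on a log scale, with better ranks at the top, and each line joins NME1 and NME2 in 1 library. The lines rise to NME2 in 3 of 3 WT libraries and fall in 3 of 3 SLK-KO libraries, and the open triangle is WT replicate 3, which has no summit at NME1.

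Around FOXK1, the MYC summits and many of the POL2 summits lay near the starts of other genes. Other POL2 summits lay inside FOXK1, 4536 to 5213 bp from its nearest TSS in 2 WT libraries and 4542 to 5261 bp in 3 SLK-KO libraries. The only other MYC summit within 50 kb of a FOXK1 TSS was at 4725212 in SLK-KO replicate 2, with rank 864, inside FOXK1 and 228 bp from the TSS of the lncRNA ENSG00000287665. POL2 lay 26 to 143 bp from that lncRNA start in 3 of 3 SLK-KO libraries, with ranks of 2766 to 5576, and 87 bp from it in 1 WT library, with rank 9224. At the upstream site POL2 ranked 10620 in the WT library that had it and 9287, 7931 and 7161 in SLK-KO. All 4 ranks are past 5047, the length of the WT replicate 2 list, but they come from other lists, and the part of list length was not tested. Within this region POL2 was present in all 6 libraries only at AP5Z1, the gene next to the 3′ end of FOXK1, with ranks of 1272 to 2761 in WT and 1725 to 2943 in SLK-KO.

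Within 5 kb of a FOXK1 TSS there were 1, 0 and 1 POL2 summits in WT and 1, 1 and 1 in SLK-KO, all at least 4536 bp from it. Within 50 kb there were 6, 1 and 2 in WT and 5, 4 and 5 in SLK-KO, a difference of 1.67 (exact permutation p 0.4, adjusted 1 over 14673 genes, of which 10.0% were higher in every SLK-KO library and 0.0273% lower). Without WT POL2 replicate 1 the difference was 3.17 and the ranges no longer overlapped, as for 39.2% of all genes with more summits in SLK-KO under the same omission.

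**Figure D5:**
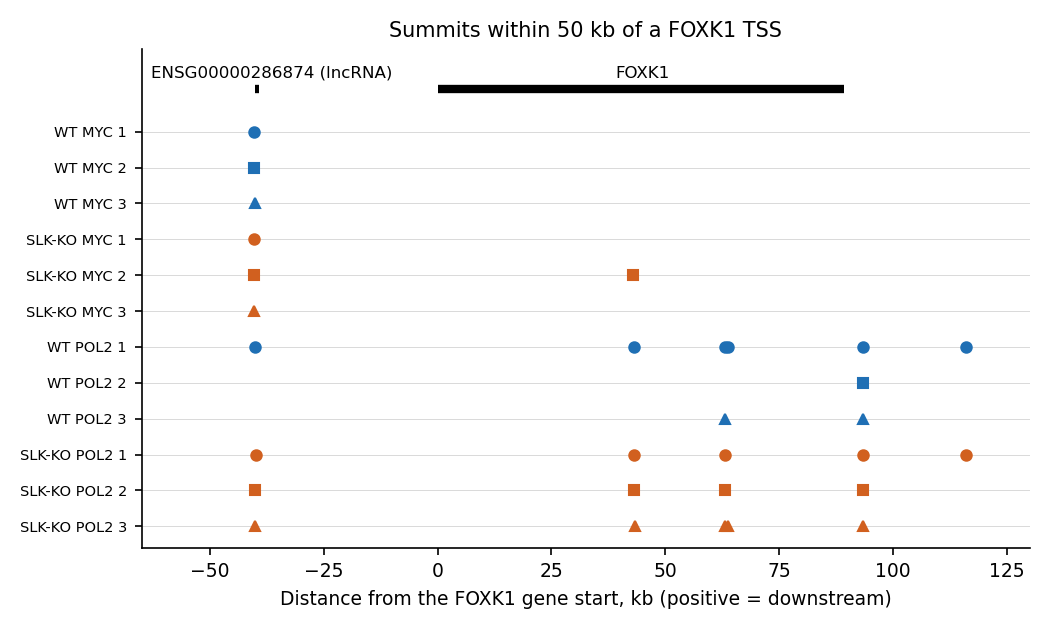
The horizontal axis is the distance in kb from the start of FOXK1, black bars mark FOXK1 and the lncRNA beside the MYC site, and each line holds the summits of 1 library. The 6 MYC libraries share a summit about 40 kb upstream, none lies at the FOXK1 start, and POL2 joins the MYC site in 3 SLK-KO libraries and 1 WT library.

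Relatives and partners of these genes were looked up in the same lists. Of the 24 that are not members themselves, 19 had POL2 within 5 kb in at least 1 library, and 8 had it in 2 WT and 3 SLK-KO libraries, as NME1, BRWD1 and SNX5 did. These 8 were NME3, NME7, PHIP, SNX1, SNX4, SNX6, SNX7 and BAP1. That is 42.1% of the 19, beside the 28.3% given above for coding genes. As a description of MYC, which the choice of members used, NME3 had a MYC summit in 1 SLK-KO library (rank 779), PHIP in 1 SLK-KO library (rank 656) and BRWD3 in none. Of the other sorting nexins, SNX8 had MYC in all 6 libraries. It ranked 8, 30 and 18 in WT and 20, 14 and 30 in SLK-KO, and these best-ranked summits are those of the EIF3B site, 29 bp from an EIF3B TSS.

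FOXK2, the paralog of FOXK1, had a MYC summit in 1 WT library (rank 319), with POL2 in 2 WT libraries and no SLK-KO library. SIN3A, which encodes a corepressor that FOXK1 recruits, had MYC in 1 SLK-KO library (rank 936). POL2 summits near SIN3A and near SNX1, which encodes a nexin that pairs with SNX5, were more in every SLK-KO than in every WT library, and 0 listed genes had fewer. Over all coding genes with POL2 the shares were 5.81% and 0.0966%. SIN3A and SNX1 are 2 of the 19 relatives and partners with POL2 in at least 1 library, too few to compare with those shares.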

How the data were processed

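The authors deposited 1 list of 1-bp peak summits per MYC and POL2 library, from 50 bp paired-end reads processed with nf-core/chipseq 2.1.0 on GRCh38.p14, per the labels. The submitters' processing notes name BWA 0.7.18-r1243 and MACS3 3.0.1. The control library and caller options are not given in the sources used here. The score the authors deposited was taken to be −log10 of a q-value, since each list's lowest score lay just above 1.301. Of 20 samples, 12 were analysed, and 6 IgG and 2 Input samples were not used here.

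TSSs came from GENCODE release 44 and sequence from the same build. Tests between genotypes were exact two-sided permutations over libraries (20 relabellings), with Benjamini-Hochberg adjustment over all genes or sites, and the procedure was tested on simulated data. A call means that the ranges of both genotypes do not overlap. Named besides the members were the next sites by median rank, the 2 sites closest in rank to each, genes with a TSS within 5 kb of a site, and family lists. Members, lists and markers were chosen with earlier results of these data known. Some marker genes are not reported here. Alternatives covered score minimums, list lengths, windows, a replicate block, and each library left out in turn. The tools were samtools 1.23.1, pysam 0.24.0, scipy 1.17.1, pandas 2.3.3, numpy 2.4.6 and Python 3.11.15.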

Additional observations from a re-analysis of the deposited data

Results flagged for a closer look

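The order of NME1 and NME2 in the POL2 lists differed between the genotypes. NME2 ranked ahead of NME1 in 3 of 3 WT libraries and behind it in 3 of 3 SLK-KO libraries, and the log2 ratio of their ranks differed by 1.74. The difference itself was tested, with an exact permutation p of 0.1, the smallest that 3 against 3 libraries allow, and an adjusted p of 0.413 over 628 pairs of promoters. The comparison was chosen after the values were seen.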

How the results depend on the processing

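Of 190 alternatives to the tested values of the 5 genes, 172 kept the direction or were at 0 and 18 reversed, and of 47 alternatives to counts 35 stayed within 1.5 times. No p could fall below 0.1, so staying on 1 side of 0.05 says nothing about stability.

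The difference in POL2 summits near SNX5 went to 0.667 with a score of at least 5 or 10 and with the gene start alone, and to 0.333 with POL2 lists of equal length, where that of NME2 went to -0.667. The difference in distance to POL2 at NME2 went to -60.7 bp and -100106 bp with scores of at least 5 and 10 and to -33.7 bp from the nearest TSS, and that of BRWD1 to 29 bp at equal length. The genes without overlap in that distance were 1 of 5 with a score of at least 10 (16.2% of the 80 sites) and 1 of 5 from the nearest TSS. The sites with POL2 in all SLK-KO but not all WT libraries were 2 of 5 at equal length (12.5% of the 80 sites) and 5 of 5 with a score of at least 5. No share of the 80 sites was taken for the nearest TSS or for a score of at least 5. Those counts therefore have no background and show nothing particular to these sites. The cause of these changes was not tested.

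Leaving out each library in turn, the genes without overlap numbered 0 to 1 for POL2 summits (1 without WT POL2 replicate 1; over all genes 6.86% to 23.2% within 5 kb and 11.1% to 39.3% within 50 kb), 0 to 2 for MYC position (2 without WT MYC replicate 2; 21.2% to 33.8% of the 80 sites) and 0 to 2 for the distance to POL2 (2 without WT POL2 replicate 3; 18.8% to 33.8% of the 80 sites), and the sites with POL2 in all SLK-KO but not all WT libraries 2 to 4 (2 without WT POL2 replicate 2). The differences ranged from -1.5 to 0.5 summits at SNX5, from -18.7 to 43.8 bp in position at BRWD1 and -24.2 to 4.83 bp at the FOXK1 upstream site, and from -6181 to 83.3 bp at NME1 and -84464.5 to 11 bp at SNX5 in the distance to POL2. The distance at NME1 turned without WT POL2 replicate 3, that at SNX5 without WT POL2 replicate 2 and the position at the FOXK1 upstream site without SLK-KO MYC replicate 2. The NME1 and NME2 order ranged from 1.58 to 1.82, and it was 1.38 with a score of at least 5 and 1.41 at equal length (p 0.1 each, by exact permutation). With the gene start alone it was 1.85 (exact permutation p 0.2), but that value rests largely on missing summits. In WT replicates 1 and 2 and SLK-KO replicates 1 and 3 the best NME2 summit lay 1012 to 1144 bp from the gene start. It fell outside the 1 kb window, so NME2 was ranked 1 past the end of those lists. NME1 was then ahead in WT replicates 1 and 2, so the opposite order did not hold with that setting.

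Same-numbered POL2 libraries correlated at 0.190, 0.0927 and 0.0353 in their deviations over 11387 genes, and differently numbered ones at -0.154 to 0.107. Only replicate 1 stood above that range, and the numbers were not taken as pairs. With the replicate block the NME1 and NME2 difference stayed at 1.74, and its exact p was 0.25, the lowest possible over 8 sign flips. Unknown read depth limits every statement on a missing summit.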
